A study of Mus musculus with 9 samples.

Results

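The comparison described here set RNA taken from C2C12 cells after 5 h of actinomycin D against RNA taken at 0 h, across all genes. C2C12 is an established line of mouse myoblasts, the dividing precursors of muscle fibres, grown in serum. Cells had received a control siRNA, an siRNA against Cugbp1 (the gene listed as Celf1) or an siRNA against Mbnl1, and 5 ug/ml of actinomycin D, which stops transcription, was then added. Total RNA was hybridised to Affymetrix whole-transcript arrays. The series has 9 arrays, 1 for each of the 3 siRNAs at 0, 2.5 and 5 h. The 6 arrays at 0 h and 5 h form 3 pairs that share an siRNA, and each pair is called an arm below. The 3 arrays at 2.5 h entered only the estimate of the residual spread and the timing of the changes. Every group carries an siRNA, and all 5 h arrays carry actinomycin D. No arm has a second culture in the labels, so the p-values measure the spread between the 3 arms, which differ in siRNA. Of 19938 genes with a named probe set, 9864 had a mean log2 intensity of at least 7.385 (an intensity of 167.1) and were tested.

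When transcription stops, the level of an mRNA falls at the pace of its decay. Short-lived mRNAs usually encode proteins that a cell changes quickly, such as transcription factors, feedback inhibitors of signalling and cell cycle regulators, and many carry sequence elements that recruit deadenylases and decapping enzymes. Long-lived mRNAs often encode enzymes, ribosomal proteins and structural proteins. Actinomycin D inserts into DNA and blocks the advance of RNA polymerases, and RNA made before the block can still be processed and degraded.

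Values are log2 intensities, and values of 3 arrays are given in the order control, Cugbp1 and Mbnl1 siRNA. A change is the mean of the 3 paired differences, 5 h minus 0 h, on the log2 scale (n = 3 pairs). The standard error (SE) printed with it is limma's moderated error from the fit to all arrays. It is not computed from the 3 paired differences alone and can be larger or smaller than their own error. A gene fell or rose where limma's moderated test gave an adjusted p under 0.05 over all 9864 genes. A fall of at least 2-fold is such a call with a change of −1 or lower. The arrays were scaled to one another before deposit, so a change compares a transcript with the rest of its array and is not an amount per cell. With the medians of the cytosolic ribosomal protein genes set equal on all arrays, every change moved by −0.228. With equal medians of all genes tested or equal 75th percentiles, every change moved by 0.155 or 0.145. The medians of 30 of the 52 gene lists change sign between the deposited values and these 3 scalings and so have no settled direction; 20 stay below 0 and 2 above it. Beside the counts of lists without a settled direction stand the lowest and highest median over the scalings, or the value with equal ribosomal protein medians. The gene lists group genes by function, and members are counted only where they were tested.

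The siRNA targets were low in their own arms. Celf1 read 11.66, 9.96 and 11.19 at 0 h and 11.73, 9.52 and 11.03 at 5 h, and Mbnl1 read 12.43, 12.33 and 10.24 and 12.44, 12.43 and 9.79. Neither passed the test for time as deposited. With equal ribosomal protein medians both did (−0.40 and −0.34), and Celf1 also did without the 0 h array of the control arm (−0.29). Of 10 myoblast markers, 9 were above the filter, including Myod1 and Myf5. Markers above it were 2 of 10 for adipocytes, 1 of 9 for bone and cartilage, 3 of 10 for fibroblasts, 2 of 10 for macrophages and leukocytes and 0 of 8 for endothelium. The summed level of the myoblast list lay between 14.77 and 14.90 on the log2 scale at 0 h and between 14.80 and 14.87 at 5 h. The sum rests on its brightest members, and of the 9 tested 4 fell, Myf5 and Myod1 among them, 1 rose and 4 were not called; with equal ribosomal protein medians 8 fell.

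In RNA from a whole culture, fewer cells of a kind and less RNA per cell cannot be told apart. Of the genes tested, 68.4% passed the test, 32.8% downward and 35.6% upward. The rises and falls counted for a list below are to be read against these shares. With equal ribosomal protein medians the called genes were 234 up and 5479 down, with equal medians of all genes 5836 up and 2382 down, and with equal 75th percentiles 5722 up and 2435 down. The downward side was long and the upward side short. The 1st percentile of the change was −1.69 and the 99th was 0.45. A total of 151 genes changed by −1.5 or lower, and 6 by −3 or lower, while 3 changed by 1 or more. A change within 0.2 of 0 was seen for 50.6% of the genes. Falls of at least 2-fold made up 5.49% of the genes, and rises of at least 1.5-fold 0.193%. All 3 arrays at 5 h lay below all 3 at 0 h for 24.4% of genes, and above them for 19.8%. Among the 542 genes that fell at least 2-fold, 539 were apart in this way, and Plk3, H2ax and Pdk4 were not. These genes were chosen on the same arrays, so this count is largely fixed by the choice.

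**Figure D1:**
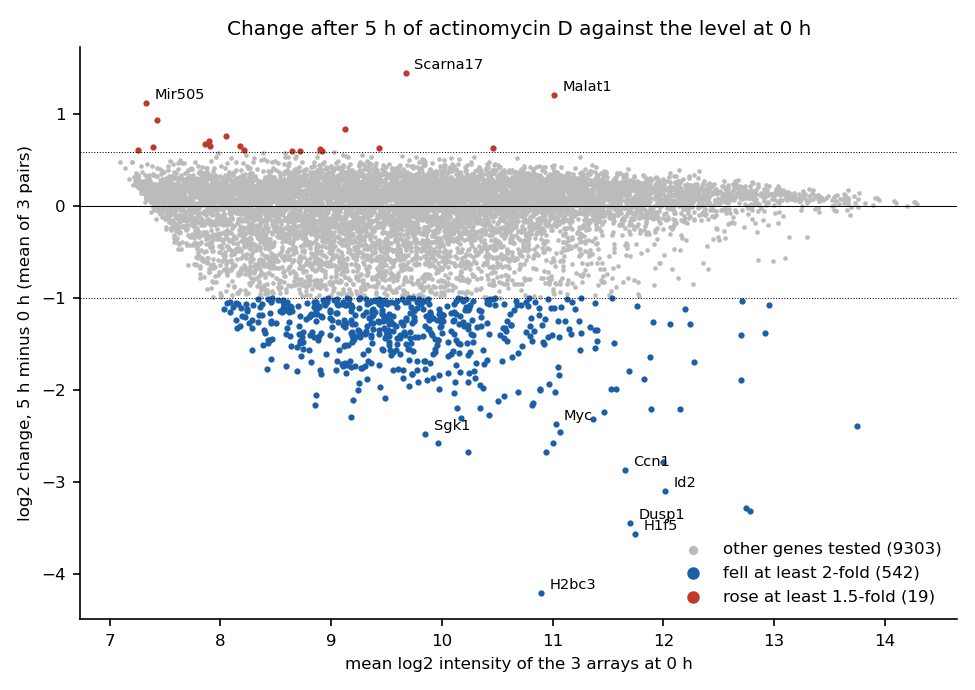
Change of each of the 9864 genes from 0 h to 5 h (vertical axis, log2, mean of 3 pairs) against its mean log2 intensity at 0 h (horizontal axis). Blue points mark the 542 genes that fell at least 2-fold, red points the 19 that rose at least 1.5-fold, and dotted lines those marks; falls reach −4.21 (H2bc3) and rises 1.44 (Scarna17).

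Replication-dependent histone mRNAs, which end in a stem-loop in place of a poly(A) tail and are made in S phase for new chromatin, had the lowest median of all lists. Of 15 members tested, 14 fell, 11 of them at least 2-fold, and the median was −2.21 (−2.20, −2.69 and −1.82 by arm). H2bc3 (probe set 10404061), which encodes a core histone of the H2B class, read 11.17, 11.13 and 10.40 at 0 h and 6.70, 6.69 and 6.68 at 5 h. Its change was −4.21 ± 0.13, 18.5-fold as deposited (limma adjusted p = 2.44e-07). The arrays at 5 h are all below the filter value and within 0.03 of each other, so the fall may be understated. The filter is not a detection limit, and the other scalings move the fold, so this is no strict bound. H1f5, a linker histone, read 12.005, 12.02 and 11.21 and then 8.10, 8.36 and 8.07, a change of −3.57 ± 0.12. H2ac15 went from 12.93, 12.79 and 12.64 to 9.67, 9.18 and 9.56 (−3.31 ± 0.09). H4c4, a core histone of the H4 class and one of the brightest probe sets that fell, read 13.89, 13.74 and 13.63 and then 11.95, 10.41 and 11.72 (−2.39 ± 0.25). Its arms are far apart, with the largest fall under Cugbp1 siRNA. H2bc4, named because it was the exception, read 10.31, 11.86 and 11.44 at 0 h and 10.28, 12.04 and 11.42 at 5 h, a change of 0.04 ± 0.05 that did not pass the test. Histone genes of a class are near-identical in sequence, and their probe sets may share signal, so single members are uncertain.

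The proximal promoters of the 4 genes below are shown because their falls were among the 15 largest, and because both histone promoters hold TATAAA. Each run holds the 250 bases before the gene start from RefSeq (GRCm38.p6), read 5′ to 3′ on the gene's strand, with 4 motifs in capitals where they match: TATAAA, the core of a promoter box bound by TBP; TGACGTCA, the cyclic AMP response element (CRE); TGACTCA, the AP-1 site; and CACGTG, the E-box. H2bc3 is at chr13:23746484-23746733 (plus strand), H1f5 at chr13:21780626-21780875 (minus), Dusp1 at chr17:26508473-26508722 (minus) and Ccn1 at chr3:145649986-145650235 (minus).
H2bc3: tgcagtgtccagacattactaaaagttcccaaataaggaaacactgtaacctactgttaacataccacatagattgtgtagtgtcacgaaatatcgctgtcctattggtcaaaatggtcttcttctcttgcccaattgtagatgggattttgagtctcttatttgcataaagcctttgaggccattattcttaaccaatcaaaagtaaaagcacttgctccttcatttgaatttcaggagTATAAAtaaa
H1f5: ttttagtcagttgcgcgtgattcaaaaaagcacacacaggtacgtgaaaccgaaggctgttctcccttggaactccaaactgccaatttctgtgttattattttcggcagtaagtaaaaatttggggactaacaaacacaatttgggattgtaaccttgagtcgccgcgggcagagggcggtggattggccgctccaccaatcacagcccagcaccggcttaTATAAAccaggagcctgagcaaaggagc
Dusp1: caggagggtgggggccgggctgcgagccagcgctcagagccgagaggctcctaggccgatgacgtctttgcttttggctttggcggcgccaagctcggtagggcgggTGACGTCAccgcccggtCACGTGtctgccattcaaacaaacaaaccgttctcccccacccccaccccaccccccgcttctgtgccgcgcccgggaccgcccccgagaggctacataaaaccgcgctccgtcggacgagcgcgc
Ccn1: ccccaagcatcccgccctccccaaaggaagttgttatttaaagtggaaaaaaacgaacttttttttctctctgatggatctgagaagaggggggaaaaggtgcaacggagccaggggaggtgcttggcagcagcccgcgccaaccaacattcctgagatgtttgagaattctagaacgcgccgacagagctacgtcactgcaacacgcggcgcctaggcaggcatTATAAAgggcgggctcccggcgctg
The first base of TATAAA lies 10 bases before the start in H2bc3, 28 in H1f5 and 25 in Ccn1. Dusp1 has no TATAAA in these bases and holds a CRE and an E-box, 143 and 126 bases before its start, in a window of 68.4% G and C against 36% for H2bc3. Both strands were searched over 300 bases (250 before to 50 after the start). TATAAA was found in 6.56% of the 7976 promoters of genes tested and in 14.2% of all 27025 promoters in the table. It was found in 8 of 13 promoters of replication-dependent histones, in 8.84% of those of the genes that fell at least 2-fold, and in 7.66% of these without the histones. Among genes that fell at least 4-fold, 5 of 8 histone promoters and 4 of 22 others held it. The other motifs were no more frequent among genes that fell at least 2-fold than among all tested: 3.4% against 3.42% for the CRE, 2.27% against 3.28% for the AP-1 site and 9.3% against 10.8% for the E-box. In the whole table the CRE was found in 1.88%, the AP-1 site in 5.17% and the E-box in 7.24% of promoters.

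Immediate early transcription factors are switched on within minutes by growth factors or stress. Of 35 members of this list, 31 fell, 17 at least 2-fold (48.6% against 5.49% of all genes), and none rose; the median was −0.95. The largest falls in the list belonged to Krüppel-like factors. Klf6 read 11.69, 11.43 and 11.48 at 0 h and 9.63, 9.67 and 9.31 at 5 h (−1.99 ± 0.08). Klf4, which is best known as a pluripotency factor, went from 10.33, 10.10 and 9.93 to 8.46, 8.25 and 7.90 (−1.91 ± 0.06). Csrnp2, a cysteine and serine rich nuclear protein, fell by 3.58-fold. Jun, a subunit of the AP-1 dimer, read 11.30, 11.26 and 11.19 at 0 h, 9.34, 9.28 and 9.54 at 2.5 h and 9.64, 9.74 and 9.66 at 5 h. Egr1, a zinc finger factor of the growth factor response, read 9.19, 9.15 and 8.85, then 7.65, 7.40 and 7.23, then 8.14, 8.16 and 7.64. Both were lowest at 2.5 h in each arm and higher again at 5 h, so the 5 h comparison (−1.57 ± 0.07 for Jun and −1.08 ± 0.06 for Egr1) is smaller than the one at 2.5 h (−1.86 and −1.64). Fos and Ier2 lay below the filter and were not tested. Myc, a general activator of growth genes, read 11.02, 11.02 and 11.04 and then 8.37, 8.64 and 8.96 (−2.37 ± 0.10). Its partners and antagonists changed less. Mnt changed by −0.56 ± 0.04, 5 of 10 members of the network fell, and 1 did so at least 2-fold.

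MAP kinase feedback genes encode phosphatases and adaptors that shut off the kinase cascade which induced them. Their median of −1.51 was the lowest after the histones. Of 22 tested, 19 fell and 15 fell at least 2-fold (68.2%), with none rising. Dusp1 (probe set 10449284), a nuclear phosphatase of p38 and JNK, read 11.84, 11.47 and 11.78 at 0 h and 8.25, 8.10 and 8.40 at 5 h, a change of −3.45 ± 0.08 (adjusted p = 8.06e-08). The groups lie more than 3 log2 units apart. Dusp6, a cytoplasmic phosphatase of ERK, went from 11.36, 11.40 and 11.63 to 9.05, 9.25 and 9.38 (−2.24 ± 0.07), and Dusp10, a phosphatase of JNK and p38, from 10.93, 10.80 and 10.94 to 8.81, 8.72 and 9.13 (−2.0 ± 0.06). Ppp1r10, a nuclear targeting subunit of protein phosphatase 1, belongs to the 15 largest falls without being a member of the list (−2.46 ± 0.10).

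**Figure D2:**
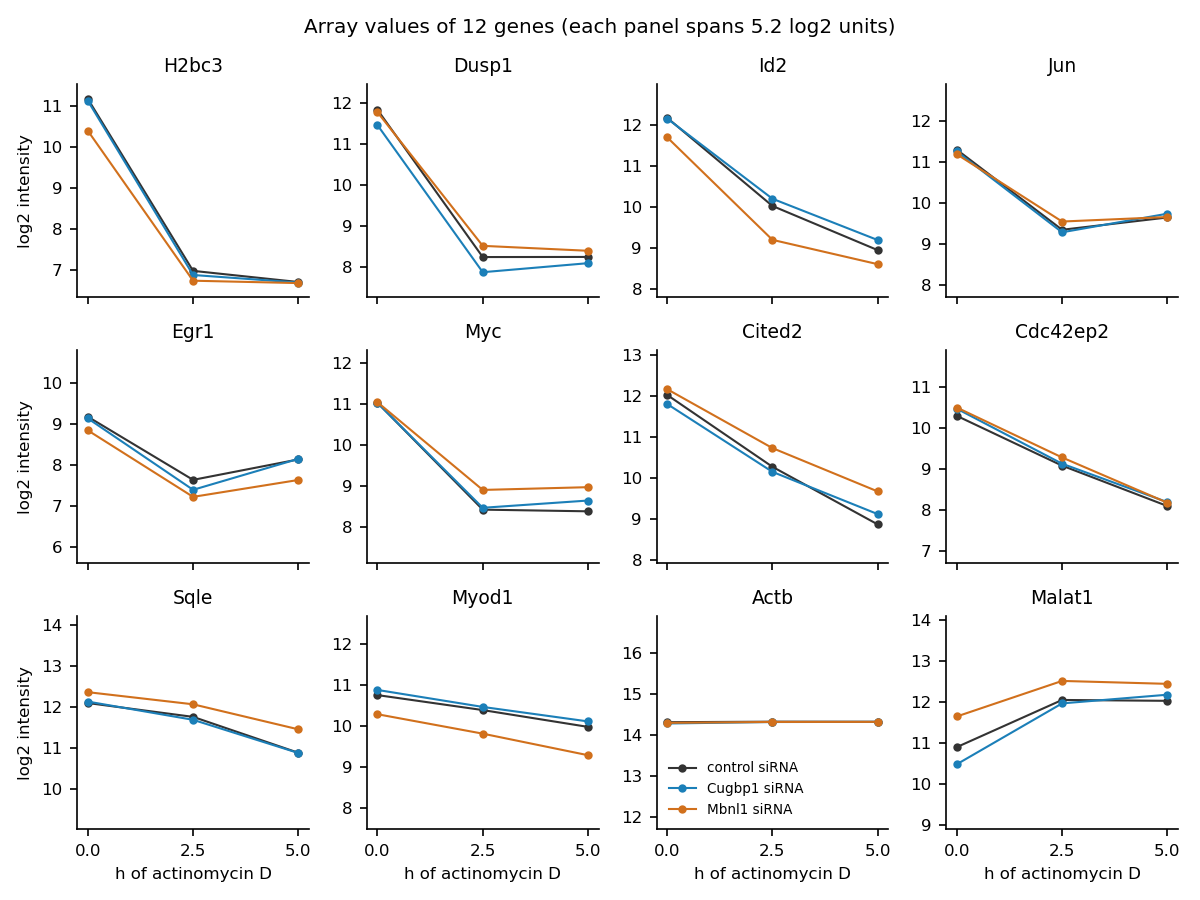
Log2 intensity (vertical axis) of 12 genes on the 9 arrays at 0, 2.5 and 5 h of actinomycin D (horizontal axis), 1 line per siRNA; every panel spans the same number of log2 units. H2bc3, Dusp1 and Myc had nearly finished falling at 2.5 h, and Cited2, Cdc42ep2 and Sqle went on falling. Jun and Egr1 were higher at 5 h than at 2.5 h, and Malat1 was higher at both later times. Actb, the brightest gene at 0 h of all tested, stayed level.

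Id proteins bind basic helix-loop-helix factors and keep them off DNA, and they are direct targets of BMP signalling. Id2 (probe set 10399691) read 12.18, 12.16 and 11.70 at 0 h and 8.95, 9.20 and 8.61 at 5 h (−3.10 ± 0.10). Id1 fell less, from 9.62, 9.78 and 9.39 to 8.13, 8.12 and 8.03 (−1.5 ± 0.06). Id3 was below the filter. Ccn1, a secreted matrix protein induced by YAP and TGF-beta, went from 11.80, 11.19 and 11.97 to 8.51, 8.58 and 9.24 (−2.87 ± 0.13). In the TGF-beta and BMP list 20 of 24 genes fell, 6 at least 2-fold, and none rose. The inhibitors Smad7 (−0.73 ± 0.06) and Ski (−0.40 ± 0.05) fell by less than 2-fold. Cited2, a cofactor that binds the CBP and p300 acetyltransferases, was among the 15 largest falls and read 12.03, 11.81 and 12.17 and then 8.87, 9.12 and 9.67 (−2.78 ± 0.11).

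The Notch list was led by a transcriptional target. Hes1, a repressor with a well-known oscillating expression, read 9.29, 9.29 and 8.96 at 0 h and 6.90, 6.91 and 6.84 at 5 h. It was 4.91-fold lower as deposited, and its level at 5 h is under the filter value. Snai2, a repressor of epithelial genes, changed by −1.94 ± 0.04 and Lfng, a glycosyltransferase that modifies Notch receptors, by −1.20 ± 0.04. Rfng, a paralogue of Lfng, went the other way and rose from 8.63, 8.57 and 8.67 to 9.10, 9.11 and 9.04 (0.46 ± 0.04, 0.23 with equal ribosomal protein medians). In all 14 of 17 members fell, 5 at least 2-fold, and 3 rose.

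Wnt pathway genes fell in 16 of 25 cases but only 2 did so at least 2-fold (8% against 5.49% of all genes). These were the receptor Fzd7 (−1.68 ± 0.06) and the scaffold of the beta-catenin destruction complex Axin1 (−1.44 ± 0.04); Znrf3, a ligase that removes Frizzled receptors, changed by −0.88 ± 0.06. Among NF-kappaB regulators and chemokines 12 of 15 fell, 4 at least 2-fold, and none rose. Nfkbia, the inhibitor that holds NF-kappaB in the cytoplasm, read 9.60, 9.59 and 9.27 at 0 h and 7.43, 7.46 and 7.31 at 5 h (−2.09 ± 0.07). Irf1, an interferon-induced factor, went from 8.93, 8.82 and 8.83 to 6.74, 6.81 and 6.87, 4.15-fold lower as deposited and under the filter value at 5 h. Tnfaip3, an enzyme that edits ubiquitin chains in this pathway, read 9.44, 8.71 and 9.78 and then 7.40, 7.53 and 7.76. It fell in all arms, by different amounts (−2.04, −1.17 and −2.02).

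Regulators of the actin cytoskeleton and of kinase signalling formed another group with a low median (−0.84), and 9 of 21 members fell at least 2-fold (42.9%). Rhob, an endosomal small GTPase that differs from its relatives in its rapid turnover, read 10.74, 11.04 and 11.25 and then 8.05, 8.56 and 8.67 (−2.58 ± 0.14). Sgk1, a serum-induced kinase, went from 9.94, 10.04 and 9.57 to 7.29, 7.51 and 7.30, 5.60-fold lower as deposited and close to the filter value at 5 h. Cdc42ep2, an effector of small GTPases, fell by nearly the same amount in every arm (−2.20, −2.28 and −2.32). In the whole list 14 fell and 4 rose. Among YAP and TAZ targets F3, the initiator of clotting, fell 3.35-fold as deposited, to a mean under the filter value. Ajuba, a LIM protein that restrains the Hippo kinases, changed by −1.71 ± 0.13. Of the list's 25 members, 14 fell, 5 at least 2-fold, and 6 rose; the median was −0.18.

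Secreted factors gave a mixed picture, with 12 of 22 members falling, 3 rising and 1 falling at least 2-fold (4.55%). That gene was Angptl4, an inhibitor of lipoprotein lipase (−1.83 ± 0.09). The angiogenic factor Vegfa read 10.81, 10.90 and 11.19 at 0 h and 9.98, 10.19 and 10.19 at 5 h (−0.85 ± 0.06), while its relative Vegfb read 10.45, 10.42 and 10.38 and then 10.82, 10.84 and 10.65 (0.35 ± 0.04; 0.12, not called, with equal ribosomal protein medians). Hbegf, an EGF receptor ligand, changed by −0.86 ± 0.06.

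The list for the integrated stress and unfolded protein responses went both ways as deposited. Xbp1, the transcription factor of the response, went from 11.88, 11.82 and 11.80 to 9.94, 9.85 and 10.03 (−1.89 ± 0.05), Chac1, a glutathione-degrading enzyme of the stress response, changed by −1.82 ± 0.10, and Ddit4, an inhibitor of mTORC1, read 9.86, 10.29 and 10.34 and then 8.09, 8.52 and 8.48 (−1.80 ± 0.06). The largest rises in the list belonged to 3 proteins of the endoplasmic reticulum, Pdia6 (0.35 ± 0.04), Sdf2l1 (0.29 ± 0.05) and Dnajb11 (0.27 ± 0.04), and none of these passed the test with equal ribosomal protein medians (0.13, 0.06 and 0.05). Of 32 members 17 fell, 8 at least 2-fold (25%), and 11 rose. Falls made up 53.1%, against 32.8% of all genes, and rises 34.4%, near the 35.6% of all genes. With equal ribosomal protein medians 20 fell and none rose. The median of this list lay between −0.49 and −0.11 over the scalings. Heat shock genes also went both ways. The co-chaperone Dnajb1 (−1.69 ± 0.10), the transcription factor Hsf2 (−0.91 ± 0.07) and Dnajb4 (−0.62 ± 0.04) fell. In all 5 of 34 members fell and 12 rose (14.7% and 35.3%, against 32.8% and 35.6% of all genes). The median lay between −0.17 and 0.21 over the scalings.

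p53 targets included 7 falls of at least 2-fold among 22 members (31.8%). The kinase Plk2 read 10.27, 10.06 and 10.71 at 0 h and 7.83, 8.38 and 8.23 at 5 h (−2.20 ± 0.15), and Ppm1d, a phosphatase that switches the p53 response off, went from 10.91, 10.86 and 10.90 to 8.81, 8.97 and 8.91 (−1.99 ± 0.04). The main ligase of p53, Mdm2, fell by less (−0.73 ± 0.06). Plk3, a stress-induced kinase related to Plk2, read 10.86, 10.64 and 12.04 and then 9.59, 9.24 and 11.56. The Mbnl1 arm is high at both times, so the groups overlap, and the change is downward in every arm (−1.27, −1.40 and −0.49). In the circadian list the repressors Bhlhe40 (−2.20 ± 0.12) and Bhlhe41 (−1.71 ± 0.10) fell most, followed by Arntl, the activator subunit of the clock (−1.20 ± 0.04); 9 of 13 members fell, 4 at least 2-fold, and none rose.

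Myogenic regulators hold the cells in the muscle lineage. Myf5 read 10.26, 10.00 and 10.20 at 0 h and 8.88, 8.79 and 8.93 at 5 h (−1.29 ± 0.04), and Myod1 read 10.76, 10.89 and 10.30 and then 9.99, 10.12 and 9.30 (−0.85 ± 0.05). Both fell in each arm, Myf5 by more. Under a single exponential decay the fall of Myod1 corresponds to an apparent half-life of 5.89 h, or 4.64 h with equal ribosomal protein medians, and that of Myf5 to 3.88 h or 3.29 h. Six4, a homeodomain factor of muscle precursors, changed by −1.01 ± 0.07. Of 19 members 9 fell, 3 at least 2-fold, 1 rose, and the median lay between −0.33 and 0.05 over the scalings. Myog was below the filter. The wider list of homeobox, Forkhead, Sox, Runx, Tead and Ets factors had 42 falls among 63 members, 10 of them at least 2-fold (15.9%), led by Foxc2 (−1.83 ± 0.08), Gata3 (−1.59 ± 0.06) and Gata4 (−1.5 ± 0.04). Meis3 rose from 8.19, 8.25 and 8.45 to 8.68, 8.69 and 8.94 (0.47 ± 0.04). Hoxc5, a dim probe set with a mean of 7.21 at 0 h, was called as risen, but its arms differ in direction (0.87, 0.65 and −0.11). It was not called when any single array of the control and Cugbp1 arms at 0 or 5 h was left out (limma adjusted p between 0.0882 and 0.127), and its change was 0.71 without the 0 h array of the Mbnl1 arm.

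Zinc finger genes named Zfp, many of which encode DNA-binding repressors, fell in 132 of 166 cases (79.5% against 32.8% of all genes), 34 at least 2-fold (20.5%), and 6 rose. Zfp51 read 9.08, 9.23 and 9.28 at 0 h and 6.94, 7.23 and 7.09 at 5 h, under the filter value. It was 4.32-fold lower as deposited, and Zfp719 3.51-fold lower. Zfp213 went from 9.40, 9.58 and 9.0 to 7.27, 7.62 and 7.45 (−1.88 ± 0.11). Zfp692 was an exception among the family and rose by 1.54-fold, from 8.83, 8.91 and 8.97 to 9.44, 9.56 and 9.56.

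Chromatin modifiers fell in 75 of 120 cases, 14 at least 2-fold (11.7%), with 15 rising and a median of −0.25. The corepressor Bcor read 9.01, 8.89 and 8.82 and then 7.16, 7.23 and 6.86, 3.55-fold lower as deposited and under the filter value at 5 h. The histone demethylases Kdm5b, for methylated lysine in active promoters, and Kdm6a, for the Polycomb mark, fell as well. Kdm5b fell 3.24-fold as deposited, to a mean under the filter value, and Kdm6a changed by −1.48 ± 0.07.

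As deposited, genes of the transcription machinery went both ways. Of 77 genes for RNA polymerase II, Mediator and elongation factors, 33 fell, 7 of them at least 2-fold, and 20 rose. Falls made up 42.9% and rises 26.0%, against 32.8% and 35.6% of all genes, and falls of at least 2-fold 9.09% against 5.49%. With equal ribosomal protein medians 55 fell and none rose. The median lay between −0.29 and 0.09 over the scalings. Med7, in the middle module of Mediator, read 9.13, 9.15 and 9.06 at 0 h and 7.72, 7.62 and 7.43 at 5 h (−1.53 ± 0.05). Med17, in its head module, changed by −1.45 ± 0.06, and Taf5, a scaffold of TFIID, fell 2.82-fold as deposited. The largest rises were 0.34 ± 0.04 for the polymerase subunit Polr2k, 0.35 ± 0.03 for Taf10 and 0.34 ± 0.06 for Med30, which did not pass the test with equal ribosomal protein medians (0.11, 0.12 and 0.11).

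Of the 37 decapping, exonuclease, exosome and nonsense-mediated decay genes, 11 rose and 11 fell (median −0.24 to 0.15). That is 29.7% each, against 35.6% and 32.8% of all genes. Falls of at least 2-fold were seen for 3 (8.11%). Those were the decapping cofactors Dcp1a, which read 9.97, 9.85 and 9.88 and then 8.45, 8.45 and 8.64 (−1.39 ± 0.06), Edc3 (−1.27 ± 0.04) and Pnrc2 (−1.05 ± 0.06). Lsm7, a small ring protein that binds the shortened tail before decapping, rose (0.40 ± 0.04). Among BTG/TOB proteins and deadenylases 11 of 19 fell, 1 at least 2-fold, and 3 rose. Btg1, which brings the CCR4-NOT deadenylase to its targets, read 12.67, 12.70 and 12.74 at 0 h and 10.83, 10.95 and 10.66 at 5 h (−1.89 ± 0.07), Tob1 changed by −0.95 ± 0.09 and Btg2 by −0.66 ± 0.17. For Btg2 the value was −0.41 without the 0 h array of the Mbnl1 arm. Noct, a phosphatase of the deadenylase family with a daily rhythm, changed by −0.91 ± 0.07. Zfp36l2, a protein that binds AU-rich elements and recruits deadenylases, went from 12.48, 12.20 and 12.04 to 11.29, 11.10 and 10.48 (−1.29 ± 0.08), its relative Zfp36l1 changed by −0.85 ± 0.05, and Zfp36 was below the filter. In that list 14 of 36 rose and 9 fell (38.9% and 25%, against 35.6% and 32.8% of all genes), with a median of −0.18 to 0.20. The largest rise was that of Ago3, an effector of microRNAs (0.42 ± 0.05). Dicer1, which cuts microRNA precursors, changed by −0.85 ± 0.13, with a fall of over 2-fold in the Mbnl1 arm and smaller falls in the others (−0.67, −0.56 and −1.33).

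Of 71 splicing factors 21 rose and 15 fell (29.6% and 21.1%, against 35.6% and 32.8% of all genes). Of these 3 fell at least 2-fold (4.23%), and the median of the list lay between −0.21 and 0.17 over the scalings. The 2-fold falls were Clk1, a kinase of SR proteins (−1.08 ± 0.12), the RNA-binding protein Rbm5 (−1.07 ± 0.06) and the spliceosomal protein Prpf4 (−1.01 ± 0.06). Snrpe and Snrpd2, core proteins of the small nuclear ribonucleoproteins, rose by 0.39 ± 0.05 and 0.39 ± 0.04, or by 0.16 and 0.16 with equal ribosomal protein medians, where 2 of the 71 rose and 43 fell. A pair of related cyclins differed in direction. Ccnl1, a cyclin of splicing kinases, read 9.16, 9.06 and 9.07 at 0 h and 7.84, 8.04 and 8.22 at 5 h (−1.06 ± 0.08), while Ccnl2 read 8.68, 8.59 and 8.69 and then 9.21, 9.36 and 9.18 (0.60 ± 0.06). Rsrp1, an arginine and serine rich nuclear protein, went up from 8.93, 8.97 and 9.47 to 9.75, 9.95 and 10.18 (0.84 ± 0.05), one of the 15 largest rises.

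In the list for G2/M and mitosis 32 of 58 fell, but only 3 fell at least 2-fold (5.17% against 5.49% of all genes). Fbxo5, the inhibitor of the anaphase-promoting complex that is also known as Emi1, read 10.48, 10.30 and 9.56 and then 8.07, 8.40 and 7.75 (−2.04 ± 0.11). The kinesins Kif18a, which fell 2.87-fold as deposited to a mean under the filter value, and Kif20b (−1.32 ± 0.07) followed. Ccnf, an F-box protein that counts as a cyclin by sequence, fell by the largest amount among cyclins, from 10.97, 10.93 and 10.56 to 8.52, 8.54 and 8.99 (−2.14 ± 0.15). Ccnd1, the cyclin of the G1 phase, changed by 0.07 ± 0.03 and was not called. Of 24 cyclins and CDK inhibitors 9 fell, 3 at least 2-fold, and 6 rose (median −0.24 to 0.14). These are 37.5% down and 25% up, against 32.8% and 35.6% of all genes. Among genes of DNA replication the licensing factor Cdt1 (−1.6 ± 0.06) and the regulators E2f3 (−1.59 ± 0.06) and E2f8 (−1.42 ± 0.05) fell, and the largest rise was that of Rpa3. Rpa3, the small subunit of the single-strand binding complex, went from 9.51, 9.49 and 9.10 to 10.04, 10.01 and 9.65 (0.53 ± 0.04). Of 53 members 13 rose and 16 fell (24.5% and 30.2%, against 35.6% and 32.8% of all genes), and 4 fell at least 2-fold (median −0.19 to 0.20). Of 8 replication-independent histone variants, which are made outside S phase as well, 1 fell, H2ax (−1.07 ± 0.11), whose gene can give both a stem-loop and a polyadenylated mRNA, and 4 rose, among them H2az2 (0.26 ± 0.04) and Macroh2a2 (0.26 ± 0.04), which did not pass with equal ribosomal protein medians (0.03 and 0.03); the median of the variants lay between −0.08 and 0.31.

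F-box proteins, RING ligases and deubiquitinases, which choose proteins for degradation or spare them, fell in 54 of 103 cases, 11 at least 2-fold (10.7%; median −0.38 to 0.0007). Usp42, a deubiquitinase, read 10.24, 10.24 and 10.03 at 0 h and 8.07, 7.85 and 7.67 at 5 h (−2.31 ± 0.06). Siah1b, a RING ligase, fell 3.45-fold as deposited. Trim13, a ligase of the endoplasmic reticulum and outside the list, was among the 15 largest falls (−2.57 ± 0.12). The proteasome receives such substrates. Of its 40 subunits 16 rose and 2 fell (40% and 5%, against 35.6% and 32.8% of all genes), none at least 2-fold. The median lay between −0.14 and 0.25 over the scalings.

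Genes for making ribosomes and genes for their proteins gave different counts. Ribosome biogenesis factors and RNA polymerase I genes fell in 42 of 72 cases, 5 at least 2-fold (6.94%), with a median of −0.18. Wdr43, a nucleolar factor of small subunit assembly, read 11.33, 11.40 and 11.04 and then 9.78, 10.13 and 9.70 (−1.38 ± 0.05), and the nucleolar GTPase Gnl3 changed by −1.14 ± 0.09. Cytosolic ribosomal proteins had 45 rises among 55 genes (81.8% against 35.6% of all genes) and a median of 0.18, which is near 0 by construction once their own medians are set equal (−0.05). Rps3a1 (0.52 ± 0.06) and Rps21 (0.50 ± 0.05) rose most. Rpl12 was the single member that fell, from 8.73, 8.48 and 8.58 to 6.87, 7.02 and 6.69, on a probe set that is dim for a ribosomal protein gene. Mitochondrial ribosomal proteins, in contrast, went both ways (29 up, 19 down of 74; median −0.18 to 0.21), from −0.84 ± 0.10 for Mrps30 to 0.47 ± 0.05 for Mrps36. Translation factors (15 up, 9 down of 46; median −0.22 to 0.16) and aminoacyl-tRNA synthetases (12 up, 5 down of 33; median −0.17 to 0.22) had no fall of 2-fold. Eif2b4 (−0.54 ± 0.04) and the mitochondrial synthetase Mars2 (−0.50 ± 0.07) were the largest falls in these 2 lists. Rises made up 39.2% of mitochondrial ribosomal proteins, 32.6% of translation factors and 36.4% of synthetases, near the 35.6% of all genes. Falls made up 25.7%, 19.6% and 15.2%, against 32.8%.

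Nuclear-encoded subunits of the respiratory chain, which make ATP by oxidative phosphorylation, had few exceptions as a list. As deposited 67 of 75 rose and none fell, with a median of 0.26. Setting the ribosomal protein medians equal left 13 called upward and 4 downward, at a median of 0.03. Ndufs6 and Ndufc1, subunits of complex I, and Atp5k, of ATP synthase, led with 0.48 ± 0.07, 0.48 ± 0.04 and 0.48 ± 0.06. Lysosomal genes (38 up, 3 down of 50) and genes of the endoplasmic reticulum and COP coats (41 up, 3 down of 54) had medians of 0.20 and 0.17 that turned to −0.03 and −0.06 with equal ribosomal protein medians. The lysosomal genes that fell included the transcription factors Mitf (−0.63 ± 0.08) and Tfeb (−0.54 ± 0.05), while the protease Ctsh rose from 7.48, 7.49 and 7.61 to 7.70, 8.06 and 8.11 (0.43 ± 0.07). In the antioxidant response (16 up, 5 down of 29; median −0.13 to 0.26) the factor Nfe2l2 (−0.63 ± 0.04) and the rate-limiting Gclc (−0.68 ± 0.06) fell, and the transferase Gstm2 rose (0.43 ± 0.05). In cholesterol and fatty acid synthesis 8 of 34 rose and 10 fell (23.5% and 29.4%, against 35.6% and 32.8% of all genes). The median lay between −0.24 and 0.14, and the sensor Insig1 (−0.74 ± 0.04) and the oxygenase Sqle (−1.13 ± 0.07) fell. Of 39 genes of the TCA cycle and glycolysis 24 rose and 4 fell (61.5% and 10.3%, against 35.6% and 32.8% of all genes). The median of this list lay between −0.10 and 0.28 over the scalings. Among its few falls, Pdk4, a kinase that restrains pyruvate oxidation, changed by −1.14 ± 0.07, and the glycolytic kinase Hk2 by −0.63 ± 0.04. Solute carriers counted 54 up and 39 down of 161 (33.5% and 24.2%, against 35.6% and 32.8% of all genes), with a median of −0.18 to 0.20. The 2 that fell at least 2-fold (1.24%) were Slc35c1, a Golgi transporter of GDP-fucose (−1.51 ± 0.07), and Slc38a2, an amino acid transporter induced by starvation (−1.08 ± 0.07).

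Actb, the cytoplasmic actin, read 14.31, 14.28 and 14.29 at 0 h and 14.32, 14.32 and 14.32 at 5 h (0.02 ± 0.03). The intermediate filament Vim changed by 0.03 ± 0.03, the tubulin Tubb5 by −0.05 ± 0.04 and the elongation factor Eef1a1 by 0.00 ± 0.03. Actb had the highest mean at 0 h of all genes tested (14.29), and that of Eef1a1 was 14.20. Whether probe sets this bright can show a change was not tested. None of the 4 genes passed the test as deposited. With equal ribosomal protein medians the same 4 genes changed by −0.20, −0.20, −0.28 and −0.23 and all were called as fallen, and with equal medians of all genes Tubb5 was called as risen (0.10). Cytoskeletal genes counted 24 rises and 5 falls among 53, sarcomere genes 11 and 1 among 31, and matrix genes 27 and 8 among 62. Rises made up 45.28%, 35.48% and 43.55% of these 3 lists, against 35.6% of all genes, so the sarcomere share is that of all genes. Falls made up 9.43%, 3.23% and 12.9%, against 32.8%. The medians of these 3 lists lay between −0.14 and 0.25, between −0.10 and 0.28, and between −0.12 and 0.27 over the scalings. Among 53 cytoskeletal genes the largest fall was that of Tubb2a (−0.27 ± 0.04). Matrix genes had a single 2-fold fall, the secreted protease Adamts1, which read 9.40, 8.88 and 9.54 and then 7.66, 7.19 and 7.68 (−1.76 ± 0.06). The adhesion receptor Itga5 followed at −0.53 ± 0.04. Of 30 kinesin, dynein and dynactin genes 15 rose and 8 fell (50% and 26.7%, against 35.6% and 32.8% of all genes). None fell at least 2-fold, and the median lay between −0.11 and 0.28 over the scalings. The lowest change in this list was that of Dync1li1, a dynein subunit (−0.81 ± 0.25). It fell in all 3 arms, by far the most in the Mbnl1 arm (−0.27, −0.37 and −1.79). Without the 5 h array of the Mbnl1 arm its change was −0.47 and no longer passed (limma adjusted p = 0.0655), and without the 0 h array it was −0.42.

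**Figure D3:**
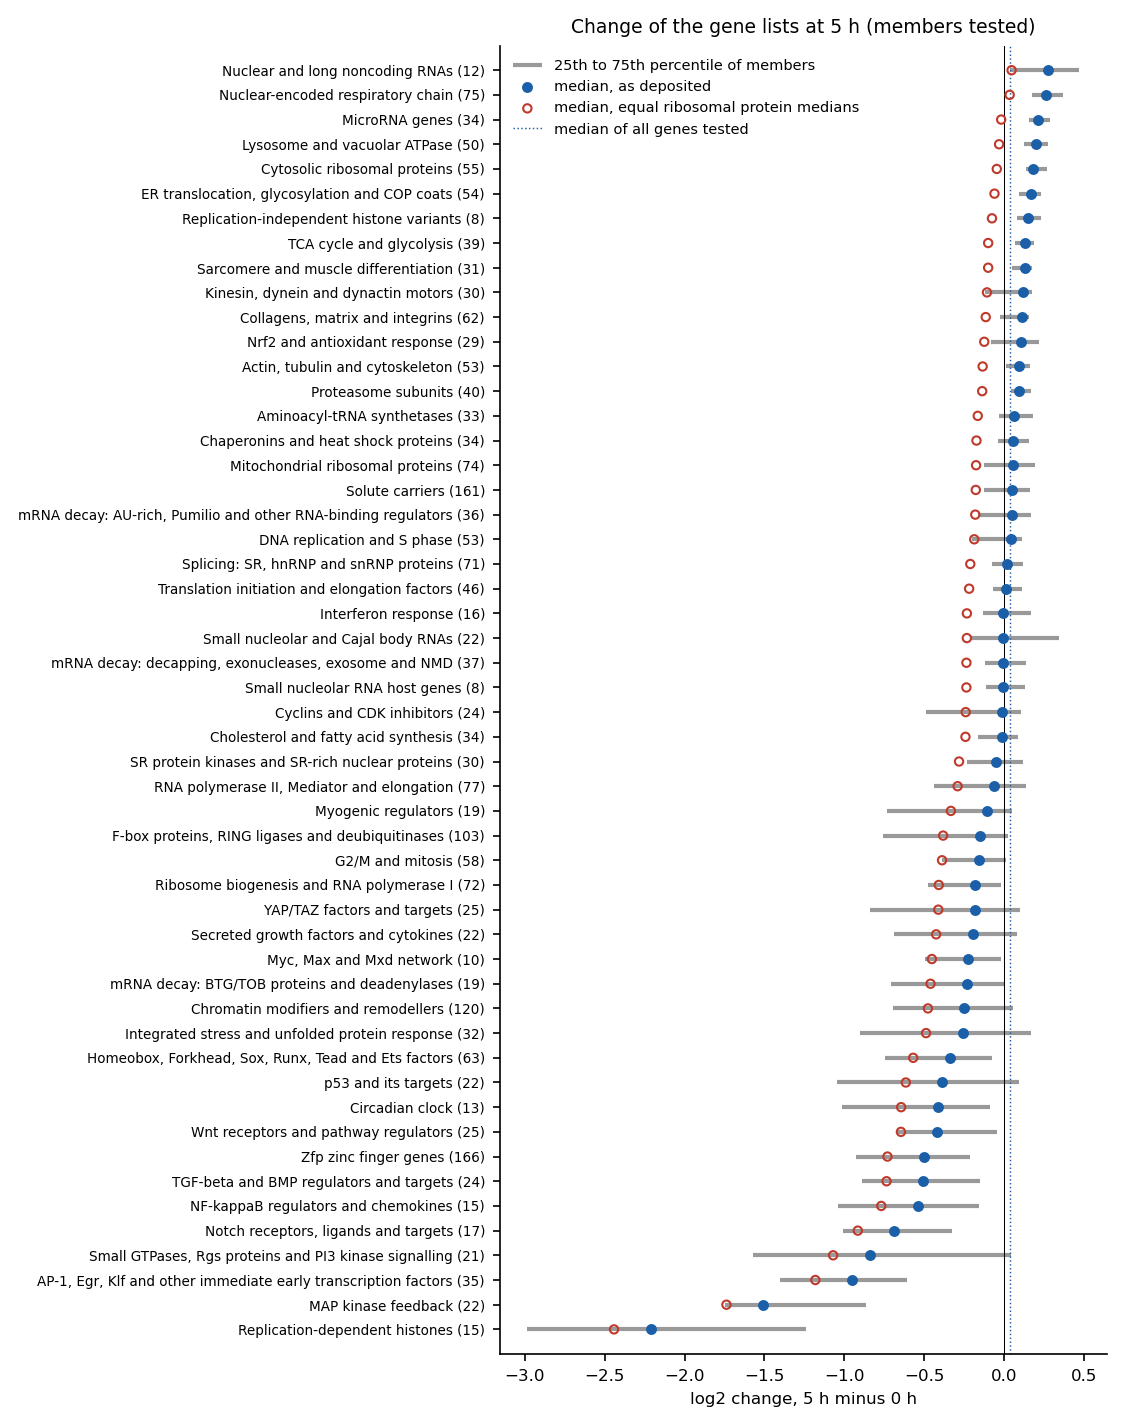
Median log2 change from 0 h to 5 h (horizontal axis) of each gene list (rows, with the number of members tested), as deposited (filled points, with grey bars from the 25th to the 75th percentile of the members) and with equal ribosomal protein medians (open points). Histones, MAP kinase feedback and immediate early factors lie farthest to the left. Lists whose filled and open points fall on opposite sides of 0 have no settled direction. The same holds for some lists with both points below 0, which the other scalings, not drawn, move above it.

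The rises of at least 1.5-fold were 19 genes, and of the 18 with a biotype 10 were not protein coding (44.4% coding, against 97.9% of all genes tested and 99.8% of the genes that fell at least 2-fold). The 19 become 5 with equal ribosomal protein medians, 131 with equal medians of all genes and 112 with equal 75th percentiles. Among the 207 genes that rose by at least 0.4 on the log2 scale 86.9% were protein coding, so the small coding share belongs to the higher mark. The median span of the 18, 6554 bases, compares with 24075 for all genes tested. Scarna17 (probe set 10459766), a guide RNA of Cajal bodies, the nuclear sites where spliceosomal RNAs are modified, read 9.60, 9.64 and 9.78 at 0 h and 11.11, 11.21 and 11.03 at 5 h (1.44 ± 0.07). Malat1, an abundant nuclear RNA of speckles, went from 10.90, 10.48 and 11.65 to 12.03, 12.18 and 12.45 (1.21 ± 0.14), and Lncpint, a p53-induced noncoding RNA, from 7.20, 7.47 and 7.61 to 8.32, 8.48 and 8.29 (0.94 ± 0.08). With equal ribosomal protein medians these 3 changed by 1.22, 0.98 and 0.71. Pvt1, the noncoding neighbour of Myc, rose by 0.65 ± 0.06 while Myc fell. Other small nuclear RNAs moved both ways. Scarna13 (0.63 ± 0.10) and Snord57 (0.63 ± 0.11) rose, and Snora74a (−0.66 ± 0.12) and Snord104 (−0.52 ± 0.07) fell. In the list 7 of 22 were up and 7 down (median −0.23 to 0.15), 31.8% each against 35.6% and 32.8% of all genes. Most of these RNAs sit in introns of other genes, and a whole-transcript probe set may also read the host transcript. Among host genes themselves Snhg5 fell (−0.67 ± 0.10) and Snhg17 rose (0.42 ± 0.08; 0.19, not called, with equal ribosomal protein medians). Gas5 fell by a small amount (−0.24 ± 0.08) that was −0.12 without the 0 h array of the control arm and was not called without the 5 h array of that arm (limma adjusted p = 0.114) or with equal medians of all genes (adjusted p = 0.284). Slc9a5, a sodium-proton exchanger, was the largest rise among solute carriers (0.68 ± 0.08).

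MicroRNA probe sets counted 24 rises and no fall among 34 genes as deposited, and 3 rises and 4 falls with equal ribosomal protein medians (median 0.21 and −0.02). A mature sequence was in the RefSeq table for 28 of them. Mir505, on the X chromosome, gave the largest change and is the one shown, with its seeds (bases 2 to 8) in capitals; the 3p arm is at chrX:60394416-60394437 and the 5p arm at chrX:60394451-60394473, both on the minus strand (GRCm38.p6).
mmu-miR-505-3p: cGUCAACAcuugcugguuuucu
mmu-miR-505-5p: gGGAGCCAggaaguauugauguu
Its probe set read 7.23, 7.53 and 7.22 at 0 h and 8.53, 8.59 and 8.22 at 5 h (1.12 ± 0.09, or 0.89 with equal ribosomal protein medians). Its mean at 0 h is below the filter value, so the size of this rise is uncertain. Both seeds are different, and the arrays, which label long cDNA made from total RNA, do not separate the mature arms from the primary transcript.

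For the median gene most of the fall came before 2.5 h. Of the fall at 5 h, the median gene among the 542 had reached 70.4% at 2.5 h; 94 had reached 90% or more, 151 less than 60%, and 503 went on falling after 2.5 h. For H2bc3 the first 2.5 h gave −4.04 and the next −0.17, and for Dusp1 −3.48 and 0.03. The apparent half-life of Dusp1 is therefore 0.718 h from the first 2.5 h and 1.45 h from the whole 5 h, so a single exponential does not describe its array values. Whether its probe set had reached a background level by 2.5 h was not tested, so neither half-life is settled. Cdc42ep2 behaved otherwise, with −1.26 and −1.01, and its half-life was 1.99 h from the first 2.5 h and 2.20 h from 5 h. Genes with the smallest share in the first 2.5 h were Sqle (31.9%), the spindle protein Aspm (35.0%), the ribosome assembly factor Brix1 (37.2%) and the RNA-binding ring protein Lsm8 (37.4%). Only 4 of the 542 were higher at 5 h than at 2.5 h by over 0.2: Egr1 (0.56), Jun (0.29), Csrnp1 (0.28) and Gadd45g (0.27). Aspm, Brix1, Lsm8 and Csrnp1 were named after their values were seen. The 19 rises of at least 1.5-fold had reached a median of 86.2% at 2.5 h.

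**Figure D4:**
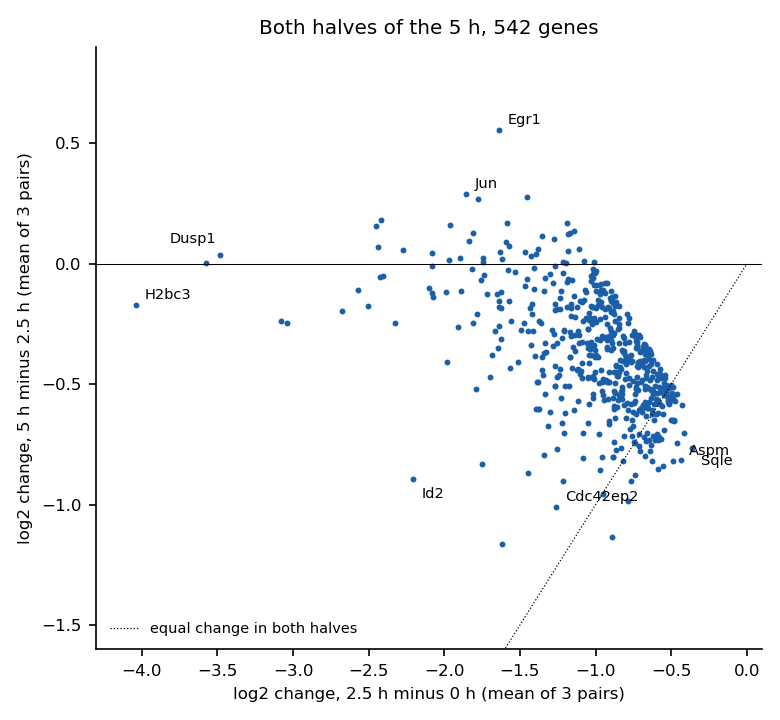
Change from 2.5 h to 5 h (vertical axis, log2) against the change from 0 h to 2.5 h (horizontal axis, log2) for the 542 genes that fell at least 2-fold, each the mean of 3 pairs. Points above the dotted line fell more in the first 2.5 h than in the next; H2bc3 and Dusp1 lie at the far left near 0, Egr1 is highest, and Sqle and Aspm lie below the line at the right.

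The 3 arms gave similar changes. Across the 9864 genes, which are not independent replicates, Pearson's r between changes was 0.949 for the control and Cugbp1 arms, 0.928 for control and Mbnl1, and 0.916 for Cugbp1 and Mbnl1. No array is shared between arms. All 542 genes that fell at least 2-fold did so with the same sign in each arm, and 389 of them by 2-fold or more in every arm. The 542 were chosen on the mean and spread of these same changes, so the shared sign is nearly fixed by the choice. Over all genes 79.3% had the same sign in the 3 arms. The median SD of the 3 changes was 0.085 over all genes and 0.153 over the 542. Of the 542, 300 had their smallest fall in the Cugbp1 arm, 178 in the Mbnl1 arm and 64 in the control arm, and their median changes were −1.39, −1.25 and −1.34 in the control, Cugbp1 and Mbnl1 arms. With 1 pair of arrays per arm this difference was not tested, and depletion of Celf1 cannot be told apart from any other difference of those arrays. The largest spread among the 2-fold falls belonged to histones and a few others. Histones had H4c4 (−1.93, −3.33 and −1.91), H4c6 (−2.55, −3.31 and −2.18), H2bc18 (−3.29, −2.73 and −2.01) and H2bc14 (−3.53, −3.63 and −2.69), each with its largest fall in the Cugbp1 or control arm. Fam20c, a secretory pathway kinase (−0.79, −0.72 and −1.95), Prune1, a phosphatase (−1.26, −1.15 and −2.17), and Fbxo32, the muscle atrophy ligase (−1.06, −1.17 and −2.04), fell most in the Mbnl1 arm. Other genes did not share this order. Ccnf (−2.45, −2.39 and −1.57) and Plk3 fell least in the Mbnl1 arm, and Tnfaip3 fell least in the Cugbp1 arm.

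**Figure D5:**
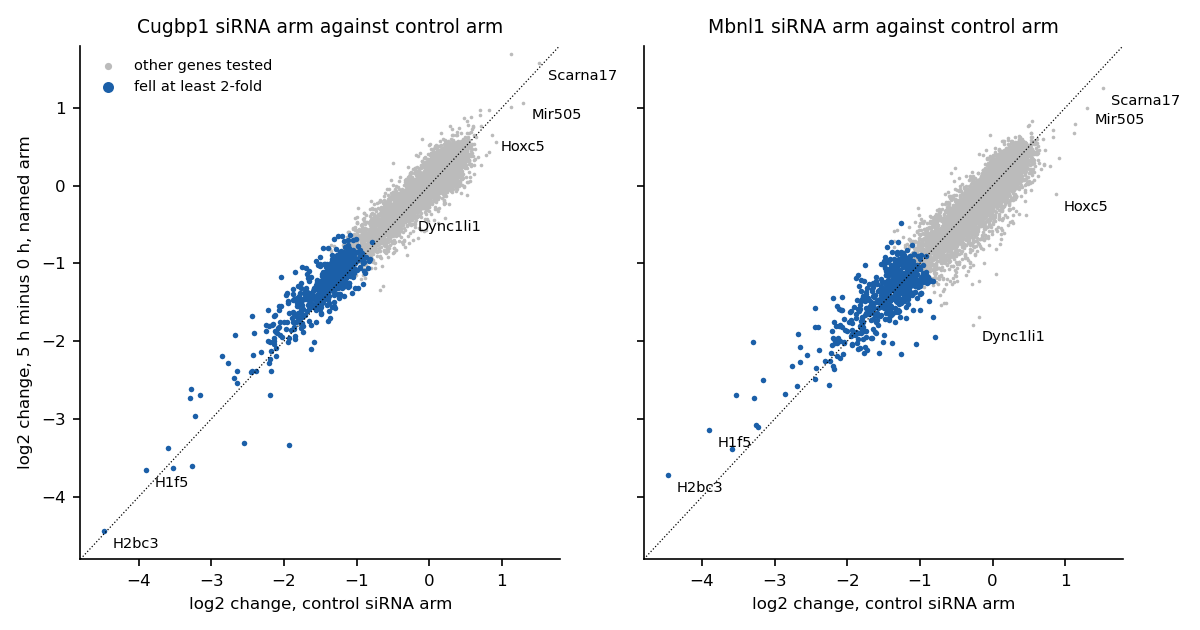
Log2 change from 0 h to 5 h in the Cugbp1 arm (left) and the Mbnl1 arm (right) against the change in the control arm, for 9864 genes; blue points are the 542 genes that fell at least 2-fold and the dotted line marks equal changes. Points follow the line in both panels (r of 0.949 and 0.928), and Dync1li1 and Hoxc5 lie below it in the Mbnl1 panel.

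Falls of at least 2-fold were not spread evenly over levels and gene sizes. With the genes in 5 equal bins by the level at 0 h, from dim to bright, they made up 1.57%, 7.45%, 9.33%, 6.03% and 3.09% of genes. The genes of the dimmest bin start between 7.10 and 8.42, close to the filter value. In 5 bins by the gene's span on the genome, from short to long, the shares were 7.36%, 6.35%, 5.28%, 4.67% and 3.81%. The median span was 17628 bases for genes that fell at least 2-fold and 5801 for those that fell at least 4-fold, against 24075 for all genes tested. Without the replication-dependent histones it was 18040 for the 2-fold falls, and it was not computed for the 4-fold falls. By chromosome, 13 had 10.7% (37 of 347 genes) and X had 2.07% (6 of 290). Chromosome 13 carries the main histone cluster, but only 11 replication-dependent histones of any chromosome fell at least 2-fold, so most of the 37 are other genes. From the mitochondrial genome ND3, a subunit of complex I, changed by −1.03 ± 0.08, and COX2, a subunit of complex IV, by −0.02 ± 0.05; these 2 were named after their values were seen. Genes with TATAAA in their promoter fell at least 2-fold in 7.46% of cases and genes without in 5.39%; the shares were 5.49% and 5.53% for the CRE, 3.82% and 5.59% for the AP-1 site, and 4.74% and 5.63% for the E-box.

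Probe sets with no gene symbol or with several were tested on their own, 3974 in all. Of these 477 fell and 1766 rose, and 115 (2.89%) fell at least 2-fold, a smaller share than among named genes. Of the genes listed for naming, Cdkn1a, Gapdh and Neat1 were not analysed here.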

How the data were processed

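The deposited table holds linear intensity values of 35556 probe sets on 9 arrays, which the authors made with Affymetrix Expression Console and RMA, per the submitters' processing notes. RMA corrects background, scales arrays to one another and summarises probes, so changes are relative. Log2 was taken here. Of the probe sets 21789 had 1 gene symbol, 1621 several and 12146 none; where a gene had more than 1 probe set, its brightest on average was kept. The filter is the 50th percentile of the means of named probe sets. limma 3.58.1 in R 4.3.3 fitted siRNA and time to all 9 arrays (4 residual degrees of freedom), with Benjamini-Hochberg adjustment. The arms are paired by siRNA, which the labels give and which the fit holds as a factor. Lists have no test of their own. Named genes are the 15 largest falls and rises with 1 sign in all arms, up to 3 called falls and rises per list, a fixed panel and the 10 falls with the largest spread. The members and lists were chosen with earlier results of these data known. Alternatives were other scalings, filters, probe set rules and models, and leaving out arrays or arms. The scripts were tested on simulated data. Array number limits the precision.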

Additional observations from a re-analysis of the deposited data

Results flagged for a closer look

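Among the 173 genes of the text, the arms of 3 went opposite ways by more than the spread of most genes. The other genes tested were not screened for this. With 1 pair of arrays per arm the difference was not tested. Hoxc5 changed by 0.87 and 0.65 in the control and Cugbp1 arms and by −0.11 in the Mbnl1 arm. Celf1 changed by 0.073 in the control arm, −0.44 under the siRNA against it and −0.16 in the Mbnl1 arm. Mbnl1 changed by 0.014 and 0.10 in the control and Cugbp1 arms and by −0.45 under the siRNA against it.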

How the results depend on the processing

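The counts moved with the scaling. With equal ribosomal protein medians 234 genes rose and 5479 fell, 885 of them at least 2-fold, which include all 542, and 5 rose at least 1.5-fold. With equal medians of the genes tested 5836 rose, 131 of them at least 1.5-fold, and 389 of the 542 (71.8%) still fell at least 2-fold; with equal 75th percentiles the numbers were 5722, 112 and 396 (73.1%). The stricter filter left 2280 rises, 1228 falls, 119 falls of at least 2-fold, 5 rises of at least 1.5-fold and 65 such falls among probe sets without a single symbol, from fewer genes tested. With no filter 29 genes rose at least 1.5-fold and 348 of those probe sets fell at least 2-fold. A fold mark of 1.5 gave 1315 falls, and one of 4 gave 37. The fit with no replicate block, which ignores the pairing by siRNA, called 958 rises and 1984 falls and kept 536 of the 542; Fam20c, H2ax, Pdk4 and Plk3 were among those it lost. Leaving out single arrays gave 502 to 577 falls of at least 2-fold and 14 to 26 rises of at least 1.5-fold. Signs that turned with equal ribosomal protein medians were those of Actb (−0.20), Ccnd1 (−0.16), Eef1a1 (−0.23), H2bc4 (−0.19) and Vim (−0.20). With equal medians COX2 changed by 0.13 and Tubb5 by 0.10, and with equal 75th percentiles by 0.12 and 0.095. Of the 96 named genes that fell at least 2-fold, 81 still did with either of these scalings, the others falling by less; the stricter filter tested 30 of them. Beside the 4 lost without the block, none of those tested lost its call under the 21 settings. Probe sets near the filter can show only small falls, which limits the count among dim genes.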
